A study of Drosophila melanogaster with 17 samples.

Results

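The genes described here are 10 ribosomal protein genes of Drosophila melanogaster that form 5 pairs of paralogs: RpS19a and RpS19b, RpS28a and RpS28b, RpL37a and RpL37b, RpS5a and RpS5b, and RpL22 and RpL22-like. They were taken by gene symbol, with case kept, so that RpL37a was not mixed with the unrelated RpL37A, and all 10 were found among the 16977 genes of the count tables. The study used translating ribosome affinity purification (TRAP), in which a tagged ribosomal protein is expressed in chosen cells, ribosomes carrying the tag are pulled down with an anti-Flag antibody, and the RNA bound to them is sequenced. Heads gave 3 TRAP and 3 control libraries, larval axonal sections 3 and 3, and legs, which the labels call adult axonal sections, 3 and 2. The comparisons asked which of the copies were higher in ribosome-bound RNA from the driven neurons than in the control pull-down, within each tissue.

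TRAP flies carried UAS-Flag-GFP-RpL10 together with a GAL4 driver. DIP-gamma-GAL4, which is active in a restricted set of motor neurons and elsewhere in the nervous system, was used for heads and legs, and OK371-GAL4, inserted at the vesicular glutamate transporter gene, for larvae. Control flies were UAS-Flag-GFP-RpL10/+, so the transgene was present in all groups and the controls lacked only the driver. The study states that the transgene is leaky without GAL4, and which cells gave the RNA of the control pull-down was not tested. Heads were from males aged 2 days, legs from males and females aged 2 days, and larvae were at the wandering stage (L3). Every library was a pool of animals. Each tissue has a count table of its own, and where stage, driver or sex differ between tissues they cannot be told apart from the tissue. The study's methods state that 1 more control pull-down of legs was dropped because it held DNA.

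Ribosomal proteins are built into every cytosolic ribosome in fixed proportion, and most are encoded in flies by a single gene whose loss of a copy slows growth. A minority have a second gene, and in several pairs one copy is used throughout the body while the other is best known from the gonads, RpL22-like from the testis and RpS5b from the ovary. An S in the symbol marks a protein of the small subunit and an L one of the large subunit. In mammalian neurons, mRNAs of ribosomal proteins are known to be present in axons.

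In each pair one copy had far more counts than the other in every library. RpS19a, RpS28b, RpL37a, RpS5a and RpL22, called the major copies here, had between 6478 and 43329 counts in the 85 gene by library values. RpS19b, RpS28a, RpL37b, RpS5b and RpL22-like, the minor copies, had between 0 and 320 counts, and 30 of their 85 values were 0. The split followed the position of the genes in the genome (coordinates of BDGP6, the build of the files, and the same in release 115 of its Ensembl annotation). All 5 major copies lie on chromosome X, and none of the minor copies does: 3 of these lie on 3R and 2 on 2R.

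The major copies have introns, with 2 to 5 exons in their longest annotated transcript. RpS19a (FBgn0010412) lies at X:16637894-16639249 on the forward strand, and RpS28b (FBgn0030136) at X:9554623-9555661, also forward. RpL37a (FBgn0030616) lies at X:15137870-15139367 on the reverse strand. RpS5a (FBgn0002590), at X:17143588-17148264 on the reverse strand, holds 14 snoRNA genes within its span. RpL22 (FBgn0015288), at X:762560-765130 on the reverse strand, holds 2 snoRNA genes and the noncoding gene CR42491 on the same strand. The counts listed for CR42491 were between 67.3% and 95.5% of those of RpL22 in the same library, so the counts of the overlapping genes cannot be told apart in this stretch. RpS28b overlaps CG15317 on the opposite strand, whose counts were between 1.03% and 9.25% of its own.

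Among the minor copies, RpS28a (FBgn0039739, 3R:30022345-30022648, reverse strand) and RpL37b (FBgn0034822, 2R:23100057-23100478, reverse strand) have a single exon. RpS19b (FBgn0039129) lies at 3R:23932729-23933530 and RpS5b (FBgn0038277) at 3R:14900432-14901563, both on the reverse strand and with up to 3 exons. RpL22-like (FBgn0034837) lies at 2R:23246610-23247893 on the reverse strand and has 2 exons. No other gene of the tables overlaps a minor copy. How reads that match both copies of a pair were counted is not given in the sources used here, so a low count of a minor copy may hold reads of its partner.

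Libraries held between 29512310 and 88324615 counts. Levels are given as CPM, counts scaled to a common library size with TMM (trimmed mean of M-values) factors, and 3 counts, taken as the detection floor, equal 0.0298 to 0.105 CPM depending on the library. Intervals and floors cover counting error only. The number of genes with 0 counts differed widely between libraries, and TRAP 2 and control 1 of the larvae, with 6086 and 5504 such genes, stood apart from the other 4 larval libraries (782 to 3163). In heads, 9 of 10 neuronal markers passed the test as higher in TRAP (summed level 1799 to 6308 CPM in TRAP libraries, against 1036 to 1289 CPM in controls), while none of these 10 did in larvae or legs. In larvae, 7 of 8 salivary gland genes passed as higher, with summed levels of 3477 to 37826 CPM in TRAP libraries and 77.5 to 190 CPM in controls, although the glands had been dissected away.

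In heads, no major copy passed the test between TRAP and control. RpS19a, a protein of the small subunit whose human counterpart is mutated in Diamond-Blackfan anaemia, was at 228, 259 and 194 CPM in TRAP heads, against 297, 274 and 238 CPM in control heads. RpS28b was at 277, 285 and 219 CPM in TRAP heads and at 301, 280 and 206 CPM in control heads. RpL37a was at 397, 384 and 318 CPM in TRAP heads and at 373, 347 and 286 CPM in control heads. For RpS19a, RpS28b and RpL37a the groups overlapped.

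RpS5a, a small subunit protein near the exit of the mRNA channel, was at 312, 296 and 284 CPM in TRAP heads and at 350, 316 and 317 CPM in control heads. RpL22, a large subunit protein that carries in flies an amino-terminal extension resembling histone H1, was at 415, 462 and 434 CPM in TRAP heads and at 495, 435 and 461 CPM in control heads. In TMM-scaled CPM every TRAP value of RpS5a was below every control value, though by a small margin, and those of RpL22 overlapped. Of the 10 genes 1 had every TRAP library below every control, against 18.2% of all genes tested in heads.

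By edgeR's quasi-likelihood test, none of the 10 genes passed an adjusted p of 0.05 in heads, where 7.23% of 16638 genes passed as higher and 9.41% as lower. None passed an unadjusted 0.05 either, where 14.6% of genes did as higher and 15.2% as lower. The log2 fold changes of the major copies (TRAP over control) were −0.25 ± 0.18 for RpS19a (edgeR adjusted p = 0.386), −0.01 ± 0.20 for RpS28b (adjusted p = 0.979), 0.13 ± 0.18 for RpL37a (adjusted p = 0.669), −0.14 ± 0.16 for RpS5a (adjusted p = 0.578) and −0.08 ± 0.16 for RpL22 (adjusted p = 0.752), each with its SE and n = 3 and 3. Their median of −0.08 lay near that of 69 ribosomal protein genes with a single copy (−0.07, none called), while the median of all genes tested was 0.32. With library size alone as the scaling, the median of all genes moved to 0.81, RpS19a, RpS28b, RpS5a and RpL22 turned to values between 0.23 and 0.47, and RpL37a reached 0.60 (adjusted p = 0.0317), so that the sign in heads depends on the scaling and each major copy stays below the median of all genes. Of 13 muscle genes 7 passed as lower in TRAP heads, with a summed level of 9336 to 16069 CPM in TRAP and 22427 to 33140 CPM in control heads, and their part in these values was not tested.

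In larval axonal sections, all 5 major copies had every TRAP library above every control library in TMM-scaled CPM, though for RpS5a this depended on the scaling. So had 4.53% of the 16702 genes tested (5.76% had every TRAP library below). RpS19a was at 379, 820 and 489 CPM in TRAP larvae, against 258, 123 and 154 CPM in control larvae. RpS28b was at 376, 985 and 358 CPM in TRAP larvae and at 245, 95.4 and 124 CPM in control larvae. RpL37a was at 609, 1512 and 650 CPM in TRAP larvae and at 500.2, 228 and 270 CPM in control larvae. The groups did not overlap, and for all 3 genes the highest value of each group came from a library with many genes at 0, TRAP 2 and control 1. The TMM factor of TRAP 2 was 0.515, which raises its CPM. As a share of all counts, the 5 major copies together were 0.265% in TRAP 2, against 0.325% in TRAP 1 and 0.295% in TRAP 3.

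RpS5a was at 440.5, 776 and 619 CPM in TRAP larvae and at 422, 218 and 301 CPM in control larvae. RpL22 was at 619, 1056 and 881 CPM in TRAP larvae and at 385, 230 and 391.8 CPM in control larvae. For RpS5a the gap between TRAP 1 and control 1 was narrow beside the spread within either group. Its separation also depended on the TMM factor of TRAP 2, 0.515. By total counts RpS5a was lower in TRAP 2 (22242 of 55654887) than in control 1 (29821 of 71688344), so that the groups overlapped.

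None of the 5 passed the adjusted threshold, as did 0.234% of genes as higher and 0.012% as lower, while 4 of them had an unadjusted p under 0.05 (4.13% of genes as higher, 2.58% as lower). The log2 fold changes were 1.66 ± 0.54 for RpS19a (edgeR adjusted p = 0.479), 1.89 ± 0.59 for RpS28b (adjusted p = 0.428), 1.47 ± 0.61 for RpL37a (adjusted p = 0.695), 0.96 ± 0.54 for RpS5a (adjusted p = 0.808) and 1.34 ± 0.56 for RpL22 (adjusted p = 0.700), with SE and n = 3 and 3. Their median, 1.47, compares with 1.64 for the 69 single-copy genes, of which 0 passed the adjusted and 57 an unadjusted threshold, and with 0.25 for all genes. DESeq2, the test the study used, called RpS19a, RpS28b and RpL22 as higher in place of edgeR (adjusted p 0.0219, 0.0369 and 0.0278). Without TRAP 1 edgeR called RpS28b (2.18, adjusted p = 0.0380). Without TRAP 2 and control 1 the 5 values lay between 0.89 and 1.58, with adjusted p between 0.252 and 0.577. The salivary gland genes were higher in the same libraries, while the summed level of 10 fat body genes was 762 to 929 CPM in TRAP larvae and 1702 to 2049 CPM in control larvae, with 5 of them below every control in every TRAP library. The 13 muscle genes summed to 12304 to 26222 CPM in TRAP larvae and 17658 to 70544 CPM in control larvae. The part of these cell types in the values of the major copies was not tested.

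In legs, all 5 major copies were again higher in every TRAP library than in every control, as were 11.8% of 14200 genes (12.8% were lower in every TRAP library). RpS19a was at 249, 196 and 198 CPM in TRAP legs, against 131 and 106 CPM in control legs. RpS28b was at 225, 194 and 188 CPM in TRAP legs and at 128 and 108 CPM in control legs. RpS5a was at 296, 255 and 262 CPM in TRAP legs and at 178 and 158 CPM in control legs. For these 3 genes the gap between the groups exceeded the range within either group.

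RpL37a was at 378, 337 and 256 CPM in TRAP legs and at 217 and 174 CPM in control legs. RpL22 was at 451, 420 and 349 CPM in TRAP legs and at 325 and 212 CPM in control legs. Both had groups that did not overlap, but their ranges within a group were wider than the gap between groups.

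**Figure D1:**
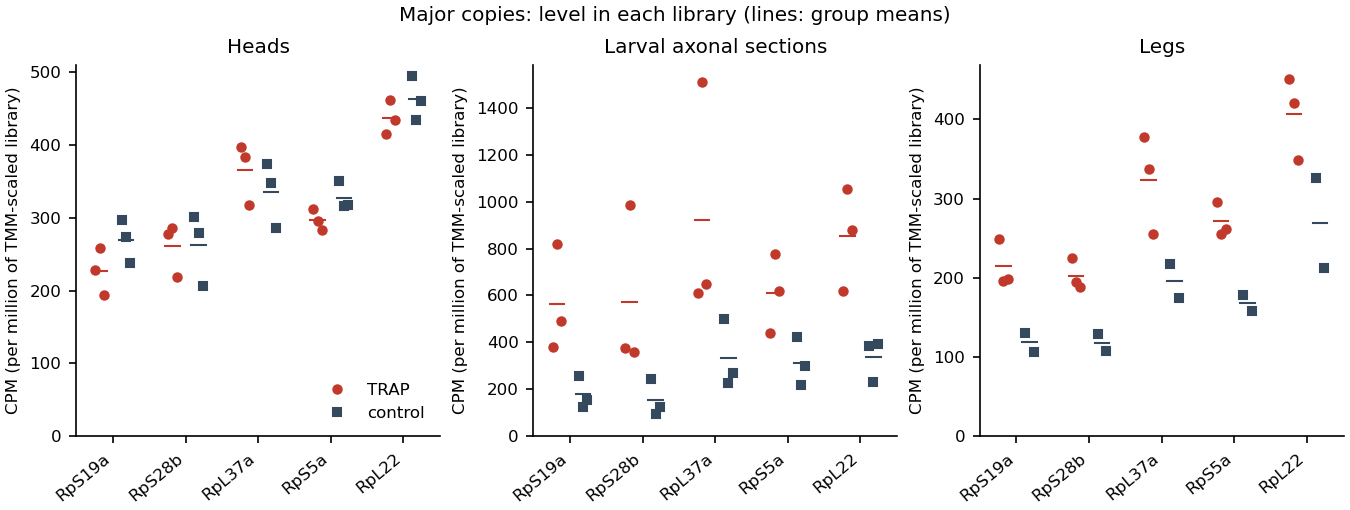
Levels of the 5 major copies (CPM, counts scaled to a common library size with TMM factors) in each library of heads, larval axonal sections and legs, with TRAP libraries as red circles, control libraries as dark squares and group means as lines. On this scaling TRAP and control overlap in heads except for RpS5a. In larvae and legs every TRAP point of a gene lies above every control point. The highest larval values, up to 1512 CPM for RpL37a, are from TRAP 2, whose TMM factor of 0.515 raises its CPM.

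The log2 fold changes in legs were 0.86 ± 0.19 for RpS19a (edgeR adjusted p = 0.128), 0.78 ± 0.17 for RpS28b (adjusted p = 0.128), 0.73 ± 0.21 for RpL37a (adjusted p = 0.230), 0.69 ± 0.16 for RpS5a (adjusted p = 0.153) and 0.60 ± 0.22 for RpL22 (adjusted p = 0.397), with SE and n = 3 and 2. All 5 had an unadjusted p under 0.05 (4.68% of genes as higher, 4.41% as lower) and none passed the adjusted threshold (0.113% as higher, 0.12% as lower). All 69 single-copy genes behaved likewise, with 0 calls, an unadjusted p under 0.05 for each and a median of 0.80, against 0.73 for the major copies and −0.01 for all genes tested. DESeq2, the test the study used, called 4 of the 5, RpS19a, RpS28b, RpL37a and RpS5a, with adjusted p between 7.1e-05 and 0.0159. The study reported many ribosomal protein mRNAs as enriched in TRAP of both larvae and legs, so the absence of edgeR calls here depends on the test. The summed level of 13 muscle genes was lower in TRAP legs (14767 to 17803 CPM) than in control legs (22344 to 22491 CPM), and its part in these values was not tested.

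**Figure D2:**
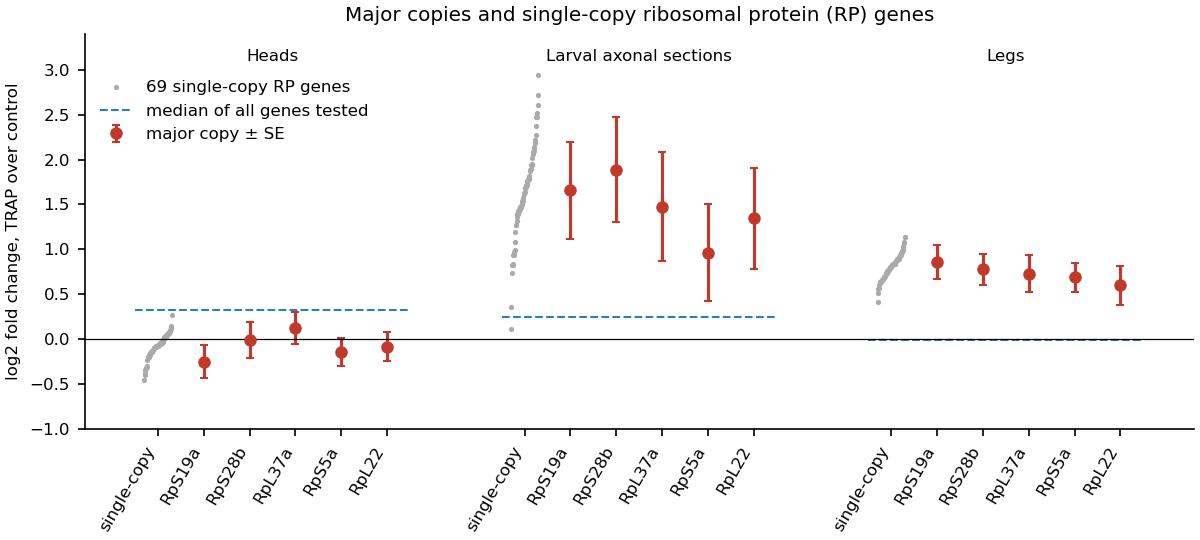
Log2 fold change, TRAP over control, of each major copy (red, with its SE) in the 3 tissues, beside the 69 single-copy ribosomal protein genes (grey, sorted) and the median of all genes tested (dashed). The major copies lie within the range of the single-copy genes in every tissue, near 0 in heads, between 0.96 and 1.89 in larvae and between 0.60 and 0.86 in legs.

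The difference between tissues was tested as an interaction of genotype and tissue in edgeR. For heads against legs, RpS19a and RpS5a passed, as lower: their TRAP effect was smaller in heads by 1.15 ± 0.26 on the log2 scale for RpS19a (difference −1.15, adjusted p = 0.0230) and by 0.87 ± 0.23 for RpS5a (difference −0.87, adjusted p = 0.0389). The other major copies had differences of the same sign that did not pass, −0.82 ± 0.27 for RpS28b (adjusted p = 0.0871), −0.72 ± 0.28 for RpL22 (adjusted p = 0.138) and −0.64 ± 0.29 for RpL37a (adjusted p = 0.201). The 69 single-copy ribosomal protein genes moved in the same direction, with a median log2 fold change of −0.07 in heads and 0.80 in legs. Of all 16706 genes, 2.54% passed as higher and 4.29% as lower in this test. With library size alone as the scaling neither gene passed, at −0.63 for RpS19a (adjusted p = 0.133) and −0.35 for RpS5a (adjusted p = 0.360). With 1 library left out at a time, RpS19a passed in 5 of 11 fits (not without heads TRAP 2, heads control 1 or 2, legs TRAP 1 or either leg control; differences −1.31 to −1.001). RpS5a passed only without heads TRAP 1 or heads TRAP 3 (2 of 11 fits, differences −0.96 to −0.78).

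For heads against larvae the 5 differences were larger, from −1.83 to −1.01, but none passed (adjusted p between 0.381 and 0.601), with 0.0178% of all genes passing as higher and 0.0178% as lower. For larvae against legs they were between 0.28 and 1.15 (adjusted p of at least 0.984), with 0.0119% of genes as higher and 0.00597% as lower. No minor copy passed in any of the 3 tests, the smallest adjusted p being 0.137 for RpL22-like in heads against legs.

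Levels were compared between genes only per kilobase. Over annotated exons, RpL22 ranked first among the major copies in all 6 groups, at 398 ± 21.6 CPM per kb in TRAP heads and 421 ± 27.2 in control heads (SD, n = 3 each), 775 in TRAP larvae (range 563 to 960.3) and 305 in control larvae (range 209 to 356, n = 3 each), and 370 ± 47.5 in TRAP legs (n = 3) and 244 ± 72.8 in control legs (n = 2). Over exons RpS19a ranked last in 5 of the 6 groups, at 181 ± 25.9 CPM per kb in TRAP heads and 215 ± 23.6 in control heads, and at 171 ± 24.1 in TRAP legs and 94.3 ± 13.9 in control legs. In TRAP larvae RpS5a, at 442 ± 121 CPM per kb, came after RpS19a, at 449 ± 183. The ranges of RpL22 and the next gene did not overlap in heads or legs but did in larvae, and between most other neighbours in the order the ranges overlapped. This order depends on the length used, and whether introns were counted is not given in the sources used here. Per kilobase of the whole gene span, RpS5a, which has long introns, was last in all 6 groups (63.6 in TRAP heads and 70.1 in control heads). By span RpL22, at 170 CPM per kb in TRAP heads and 180.3 in control heads, came after RpS28b (251 in TRAP heads and 253 in control heads) and RpL37a (245 in TRAP heads and 224 in control heads). It also came after RpS19a in control heads (199) and in TRAP larvae (331 for RpL22 and 415 for RpS19a). In control larvae it did so narrowly (130.5 for RpL22 and 131.6 for RpS19a). The reads of RpL22 include those in the stretch shared with CR42491.

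The minor copies made up between 0 and 1.63% of the counts of their pair. Only 1 of the 85 shares was above 1%, that of RpS5b in TRAP 1 of the legs, and outside RpS5b in legs the largest was 0.426%, for RpS19b in TRAP 3 of the heads. Where a minor copy had 0 counts, the upper end of the exact 95% interval of its share was at most 0.0493%. Per kilobase of exon, the smallest difference between the group means of a major and its minor copy was 6.86 on the log2 scale, for RpS5a over RpS5b in control legs (0.5 count added to each).

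In heads, each TRAP library held counts of all 5 minor copies and each control library of 3 or 4. RpS28a had 7, 9 and 9 counts in TRAP heads, against 0, 1 and 1 in control heads. RpL37b had 18, 14 and 24 counts in TRAP heads and 4, 4 and 0 in control heads. RpS5b had 14, 22 and 18 counts in TRAP heads and 0, 8 and 7 in control heads. In these 3 genes every TRAP library was above every control, in CPM and as a share of the pair, as was the CPM of 16.3% of all genes tested in heads.

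RpS19b had 23, 8 and 33 counts in TRAP heads and 11, 0 and 0 in control heads. RpL22-like, the partner of RpL22 best known from the testis, had 10, 11 and 58 counts in TRAP heads and 4, 15 and 7 in control heads. Their groups overlapped, and the higher TRAP mean of RpL22-like came from TRAP 3, without which its log2 fold change was 0.09 in place of 1.34 ± 1.17 (SE).

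The edgeR log2 fold changes were 2.22 ± 1.70 for RpS19b (adjusted p = 0.412), 2.53 ± 1.42 for RpL37b (adjusted p = 0.271), 1.63 ± 1.41 for RpS5b (adjusted p = 0.469) and 3.23 ± 1.64 for RpS28a (adjusted p = 0.224). The value of RpS19b rests on control 1, which held all its control counts, and was 7.31 without that library (adjusted p = 0.0898) and 1.65 to 2.56 without any 1 of the others. RpS28a had 25 counts in TRAP and 2 in control heads. The ratio of its summed counts per summed TMM-scaled library size was 10.7, with an exact 95% interval of 2.67 to 93.4 that covers counting error only. The share of the pair does not depend on library scaling, but it uses the same counts of the minor copies and is not separate support. The log2 ratio of minor to major (0.5 count added to each) was higher in TRAP heads by 2.86 for RpS28a, 2.77 for RpL37b and 2.44 for RpS5b (exact permutation test, two-sided, p = 0.1 for each, the smallest that 3 against 3 can give). It was higher by 3.76 for RpS19b (exact p = 0.2) and by 1.116 for RpL22-like (exact p = 0.4). These were 5 of 15 such comparisons of a pair within a tissue, and none of the 15 could reach 0.05.

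Other genes of low level moved in the same way in heads. The 5608 genes with a mean under 1 CPM had a median log2 fold change of 1.69, whereas the 11030 genes at or above 1 CPM had a median of −0.03. Every TRAP library was above every control for 14.2% of the genes under 1 CPM and for 17.4% of the others. Every TRAP library was below every control for 1.03% and 26.9%, in the same order. TRAP heads had 2519, 1160 and 508 genes with 0 counts, and control heads 3181, 1966 and 2620. A list of 23 testis genes had 4 called higher in TRAP heads (betaTub85D, Mst84Dc, ocn and bol) and 12 with every TRAP library above every control, with a median log2 fold change of 2.15 and summed levels of 165 to 233 CPM in TRAP and 57.6 to 99.3 CPM in control heads. The part of these in the values of the minor copies was not tested.

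**Figure D3:**
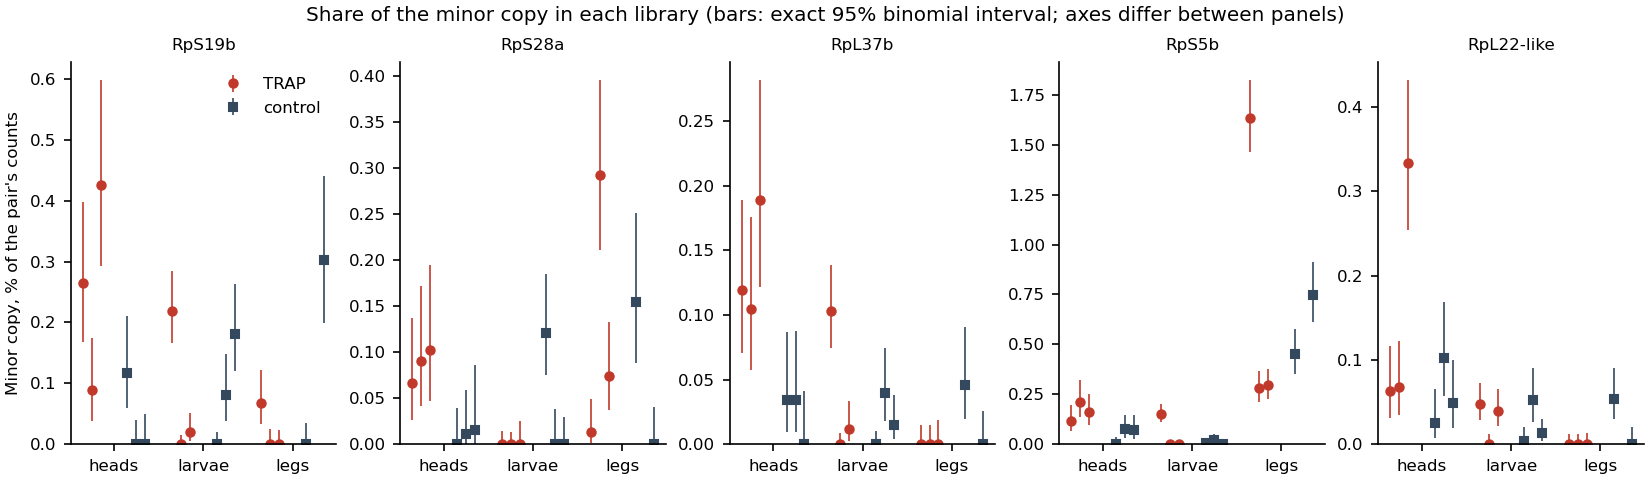
Counts of the minor copy as a percentage of the counts of its pair in each library, with exact 95% binomial intervals (counting error only); red circles are TRAP and dark squares control libraries, and each panel has its own axis from 0. The TRAP heads lie above the control heads for RpS28a, RpL37b and RpS5b, and TRAP 1 of the legs stands out for RpS5b at 1.63%.

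In larvae, which libraries held the minor copies differed within groups more than between them. RpS19b had 57, 0 and 4 counts in TRAP larvae and 0, 10 and 28 in control larvae. RpL37b had 43, 0 and 3 counts in TRAP larvae and 0, 9 and 4 in control larvae. RpS5b had 46, 0 and 0 counts in TRAP larvae and 2, 5 and 0 in control larvae. The groups overlapped in all 3 genes, and most TRAP counts came from TRAP 1, the library with the fewest genes at 0 in this tissue (782).

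RpL22-like had 20, 0 and 14 counts in TRAP larvae and 1, 12 and 5 in control larvae. RpS28a had 0 counts in all 3 TRAP larvae and 21, 0 and 0 in control larvae. Its control mean was 1.34 times the mean TRAP floor of 3 counts per library. That value rests on control 1 and leaves out the counting error of its counts. TRAP 2, with 6086 genes at 0, had no count of any minor copy although its major copies had between 22242 and 43329 counts. No minor copy passed edgeR's test (adjusted p between 0.808 and 0.937), and the smallest exact p of the pair ratios was 0.1, for RpS28a, whose TRAP ratios with 0 counts reflect only the added 0.5 and the depth of RpS28b. For RpS19b, RpL37b and RpS5b the fitted log2 fold change changed sign without TRAP 1, being −1.30, −0.19 and −3.92 without it and 1.29, 2.39 and 3.04 with all libraries.

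In legs, RpS5b was the only minor copy found in all 5 libraries, with 320, 53 and 61 counts in TRAP legs and 65 and 100 in control legs. As a share of the pair this was 1.63% (95% interval 1.46 to 1.82), 0.281% and 0.295% in TRAP legs and 0.452% and 0.749% in control legs. TRAP 1 thus lay above both controls and the other TRAP libraries below both. The log2 fold change was 1.09 ± 1.04 (SE, edgeR adjusted p = 0.781), and −0.42 without TRAP 1. The pair ratio did not separate the groups (difference −0.18, exact p = 1.0, where 3 against 2 allows no less than 0.2).

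Ovarian genes were also uneven between leg libraries. The summed level of 17 germline genes of the ovary was 66.5, 30.7 and 23.9 CPM in TRAP legs and 43.9 and 32.1 CPM in control legs, an order that matched RpS5b in having TRAP 1 highest. The summed level of 10 follicle cell genes (chorion and vitelline membrane) was 656, 138 and 1.39 CPM in TRAP legs and 0.449 and 0.871 CPM in control legs, and none of the 10 passed the adjusted threshold. RpS5b did not follow the follicle genes in TRAP 2, where it had 53 counts. The part of ovarian RNA in the RpS5b counts was not tested.

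The other minor copies in legs were seen in a few libraries only. RpS28a had 2, 42 and 11 counts in TRAP legs and 16 and 0 in control legs. RpS19b had 11, 0 and 0 counts in TRAP legs and 0 and 27 in control legs. RpL37b and RpL22-like had 0 counts in all TRAP legs and 8 and 14 counts in control 1 alone. The control mean was 1.20 times the mean TRAP floor of 3 counts per library for RpL37b and 2.09 times for RpL22-like. Both values rest on control 1 and leave out the counting error of its counts, and control 2 had none, like the TRAP legs. Adjusted p of the minor copies in legs were between 0.693 and 0.913 (edgeR), and the exact p of the pair ratios between 0.2 and 1.0.

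Detection of the minor copies was set beside the number of genes at 0 in each library. All 5 had a count in each of the TRAP heads, and 3, 4 and 3 had one in control heads. In larvae, 4, 0 and 3 of the 5 were seen in TRAP and 3, 4 and 3 in control libraries. In legs the numbers were 3, 2 and 2 in TRAP and 4 and 2 in control libraries, with 4153 to 5350 genes at 0. The 4 libraries with the fewest genes at 0 (508 to 1191) held 4 or 5 minor copies, and the library with the most (6086) held none, but control 1 of the legs held 4 with 4960 genes at 0.

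**Figure D4:**
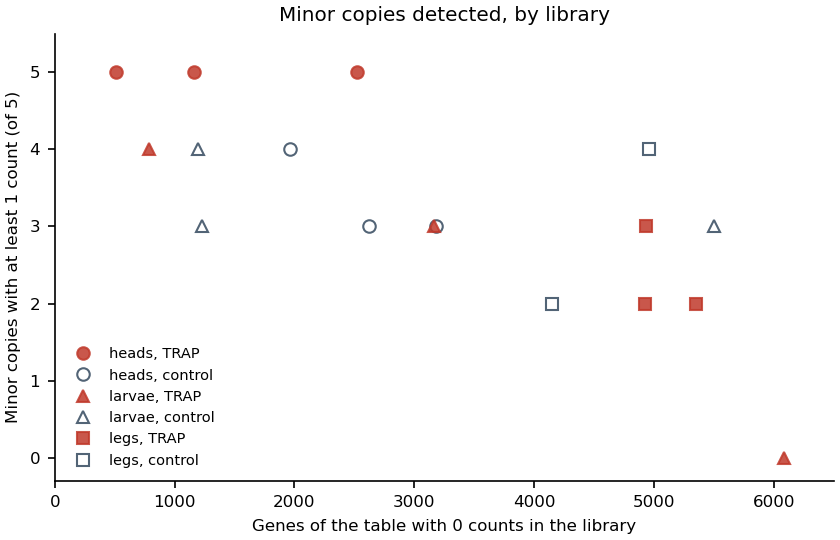
Number of minor copies with at least 1 count (of 5) in each of the 17 libraries, against the number of genes of the table with 0 counts in that library; red symbols are TRAP, open dark symbols control, with circles for heads, triangles for larvae and squares for legs. The TRAP heads hold all 5, and TRAP 2 of the larvae, at 6086 genes with 0 counts, holds none.

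By the correlation of log2 CPM over the 17 libraries among 11042 other genes whose mean reached 1 CPM, the most similar genes to RpS19b were exex, CG3213 and mAChR-B (Pearson r 0.81, 0.80 and 0.80). Those of RpL22-like were Spc105R, Oaz and CR45346 (0.91, 0.90 and 0.90). RpS5b was closest to CG17104, EAChm and CG32984 (0.87, 0.84 and 0.82) and RpS28a to CG32198, CG34196 and CR45124 (0.69, 0.63 and 0.62). The libraries share tissue, depth and number of genes at 0, and with so few counts these correlations are a description only.

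The other 5 pairs of ribosomal protein paralogs (RpS10a and RpS10b, RpS14a and RpS14b, RpS15Aa and RpS15Ab, RpL34a and RpL34b, RpL10Aa and RpL10Ab) held pairs of the same kind and pairs of another kind. RpS10a and RpL10Aa were at most at 0.429 and 0.238 CPM in any group, like the minor copies above, while both copies of the RpS14, RpS15A and RpL34 pairs were at 29.4 CPM or more in every group. In heads 2 of these 10 genes passed the test, where 7.23% of all genes passed as higher and 9.41% as lower: RpL10Ab was higher (log2 fold change 1.87 ± 0.44, adjusted p = 0.0172) and RpS15Ab lower (−0.75 ± 0.18, adjusted p = 0.0168, edgeR). None passed in larvae or, of the 9 with a count, in legs, but 7 of 10 in larvae and 8 of 9 in legs had an unadjusted p under 0.05 as higher, against 4.13% and 4.68% of all genes. The labels name the tagged protein RpL10, and whether reads of the transgene were counted for RpL10Ab was not tested.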

How the data were processed

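RNA from anti-Flag pull-downs was made into cDNA libraries with SMART-Seq HT and Nextera XT. The authors ran Trim Galore, mapped to BDGP6 using HISAT2 2.2.1, handled alignments in SAMtools 1.12 and counted over genes in SeqMonk. The deposited values are raw counts per gene, whole numbers without scaling. Whether reads or pairs were counted, and the settings for strand, introns and multiple matches, are not given in the sources used here.

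Groups came from the labels. In each tissue, every gene seen at least once (a minimum of 1 count in 1 library) was fitted with edgeR 4.0.16 (R 4.3.3; TMM, quasi-likelihood F-test, two-sided, Benjamini-Hochberg over all genes, threshold 0.05), without a block. SEs were derived from the F statistic. Interactions used both tissues of a pair. Exact permutation tests used scipy. The fits were tested on simulated data, with changes placed only in genes of higher level than any minor copy. That test does not cover the minor copies. No replicate libraries were copies of each other by chi-square. The labels give the libraries as biological replicates.

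Alternatives were DESeq2 1.42.0, other scalings, filters, a threshold of 0.01, a robust fit, a replicate block, 1 fit of all 3 tissues, a pseudocount of 2 and leaving out each library. The members and gene lists were chosen with earlier results of these data known. Genes named are the 10 members, the 3 most correlated genes of each minor copy (not reported here for RpL37b), other ribosomal protein genes past the threshold and the other 5 pairs, plus overlapping genes and called marker genes, which were chosen after their values were seen. No sequences were printed, as no sequence table of these genes was used here.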

Additional observations from a re-analysis of the deposited data

Results flagged for a closer look

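The TRAP effect of RpS19a differed between tissues: its log2 fold change was −0.25 in heads and 0.86 in legs, and the edgeR interaction of genotype and tissue gave a difference of −1.15 ± 0.26 (SE, adjusted p = 0.0230). All 3 TRAP legs were above both control legs, while the heads overlapped. When each of the 11 libraries was left out in turn the difference lay between −1.31 and −1.001 and passed the threshold in 5 of 11 fits (adjusted p between 0.0216 and 0.115). It was lost without heads TRAP 2, heads control 1, heads control 2, legs TRAP 1, legs control 1 or legs control 2. With library size alone as the scaling the difference was −0.63 and did not pass (edgeR adjusted p = 0.133).

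RpS5a differed in the same comparison, at −0.14 in heads and 0.69 in legs, a difference of −0.87 ± 0.23 (SE, adjusted p = 0.0389). In TMM-scaled CPM all 3 TRAP heads were below and all 3 TRAP legs above their controls. With library size alone as the scaling the value in heads turned to 0.34, and the difference, −0.35, did not pass (edgeR adjusted p = 0.360). With relative log expression factors the difference was −0.70 and did not pass either (edgeR adjusted p = 0.0667). Leaving out 1 library gave differences between −0.96 and −0.78, which passed in 2 of 11 fits (adjusted p between 0.0332 and 0.162), those without heads TRAP 1 or heads TRAP 3. The heads were from males and the legs from both sexes, so tissue and sex cannot be told apart in either result. The direction of the shift was not particular to RpS19a and RpS5a. The 69 single-copy ribosomal protein genes had a median log2 fold change of −0.07 in heads and 0.80 in legs.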

How the results depend on the processing

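Depth limits the minor copies: with 0 to 58 counts per library outside RpS5b in legs, a single library decided the sign of many of their values, and DESeq2 gave no adjusted p for 1 of the 10 members in heads, 5 in larvae and 2 in legs. The major copies kept their direction in larvae and legs under every alternative run. Over all alternatives, 670 single-gene values kept their direction and their side of the threshold, 15 crossed into and 20 out of a call and 22 changed sign; 86 pair ratios kept their direction and 14 changed it. The causes of the changes were not tested.

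The number of members called was 0 in each tissue with edgeR. It was 1 in heads with library size alone (RpL37a), 3 in larvae with DESeq2 and 3 with 1 fit of all 3 tissues, and 4 in legs with DESeq2. Leaving out 1 library gave 0 to 1 in larvae. The interaction of heads against legs, with 2 calls, gave 1 with relative log expression factors, 0 with library size alone, 0 at a threshold of 0.01 and 0 to 2 with 1 library left out. Heads against larvae gave 2 with DESeq2, against 0. Over all genes, heads had 2909 higher and 463 lower calls with library size alone and 52 and 139 in 1 fit of all 3 tissues, against 1203 and 1565. DESeq2 called 226 and 39 in larvae, against 39 and 2, and 357 and 247 in legs, against 16 and 17.

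In heads RpS28b, at −0.01, was 0.0374 with DESeq2, 0.0374 with relative log expression factors, 0.47 with library size alone, 0.0207 with edgeR's filterByExpr, 0.0357 with a count in every library required, and −0.16 to 0.10 with 1 library left out. Library size alone gave 0.23 for RpS19a, 0.34 for RpS5a and 0.40 for RpL22 in heads, and −0.0902 for the difference of RpS5a between larvae and legs. A pseudocount of 2 turned the pair ratio of RpL22-like in larvae to 0.12.

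Leaving out 1 library turned the sign of further fold changes of minor copies. The ranges were −1.30 to 2.44 for RpS19b, −0.19 to 3.405 for RpL37b and −3.92 to 3.85 for RpS5b in larvae, and −6.69 to 5.10 for RpS19b, −0.24 to 7.23 for RpS28a and −0.42 to 1.51 for RpS5b in legs. For the pair ratios they were −2.51 to 1.01 for RpS19b, −1.35 to 1.90 for RpL37b, −1.74 to 1.40 for RpS5b and −0.98 to 1.46 for RpL22-like in larvae, and −5.07 to 0.96 for RpS19b, −1.13 to 3.73 for RpS28a and −1.02 to 0.26 for RpS5b in legs.

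Libraries with the same replicate number did not deviate together in every pair (correlations of 0.315, 0.1801 and 0.0952 in heads, −0.538, −0.286 and −0.00406 in larvae, 0.0370 and 0.0671 in legs), so the numbers were not taken as pairs. A replicate block called 0 members in each tissue and gave −0.80 for RpS19b in larvae. A block by the library number in the larval column names called 1 (RpS28b) and gave −2.48 for RpS19b, −1.02 for RpL37b and −3.41 for RpS5b.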
